A study of Homo sapiens with 12 samples.

Results

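The genes described here are the ligands, receptors, antagonists and close intracellular members of the WNT pathway, measured by RNA-seq in cerebral organoids (COs). Members were chosen by gene symbol alone: the WNT, FZD, SFRP, DKK, RSPO, AXIN, *LGR4* to *LGR6* and DVL families, together with *FRZB*, *WIF1*, *LEF1*, *TCF7*, *TCF7L1*, *LRP5*, *LRP6*, *NKD1*, *NKD2*, *RNF43*, *ZNRF3*, *NOTUM*, *PORCN*, *WLS* and *APC*. Of the 10976 genes in the deposited tables, 36 met this rule, and genes of these families outside the tables were not analysed here. They comprised 6 ligands, 1 gene of ligand export (*WLS*), 9 receptors, 5 genes of the R-spondin axis, 6 secreted antagonists, 6 cytoplasmic members and 3 nuclear members. COs are aggregates of human pluripotent cells that differentiate toward brain tissue in culture. The WT line was the human embryonic stem cell line H1, and the KO lines KO#2 and KO#10 were derived from H1 by CRISPR-Cas9 editing of *c-JUN*, each line being 1 clone. COs were collected at day 12 and day 24, and 1 culture protocol for COs is given for all lines. Each of the 3 lines gave 2 libraries a day, 12 in all, hence 2 WT and 4 KO libraries a day, and several COs were pooled in each library.

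WNT proteins are lipid-modified signals that WLS carries to the cell surface, where they bind a Frizzled (FZD) receptor and, for the β-catenin branch, the co-receptors LRP5 or LRP6. The receptor complex recruits Dishevelled (DVL) and halts the destruction complex, built on AXIN and APC, so that β-catenin is spared and acts in the nucleus with LEF1 and TCF proteins. R-spondins (RSPO) bind LGR receptors and keep the ubiquitin ligases ZNRF3 and RNF43 from removing Frizzled, while SFRP and FRZB bind the ligands and DKK1 and DKK2 bind the co-receptors. In the early forebrain WNT signals come from the dorsal midline, including the cortical hem, a source known for WNT2B and WNT8B, and inhibition of the pathway favours anterior identity.

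The deposited values are whole-number normalized scores, written below simply as values. Every library had a median of 17 and a highest value of 5585, column totals lay between 473637 and 483149, and the depth of the libraries is not known. Values were compared between libraries of 1 gene and not between genes, since no source used here says whether they are per length. A gene was called when limma on log2 (value + 1) gave a Benjamini-Hochberg adjusted *p* under 0.05 and a change of at least 2-fold. Nothing in the labels says that libraries of a line came from separate differentiations, so *p*-values measure only the spread between these libraries. The edited gene, *JUN*, did not have less RNA in libraries that carry the label KO. At day 12 *JUN* was at 4 and 8 (WT), 19 and 18 (KO#2) and 14 and 13 (KO#10). At day 24 it was at 13 and 15 (WT), 39 and 39 (KO#2) and 29 and 32 (KO#10), a log2 fold change of 1.25 (SE 0.17, adjusted *p* = 0.0184). The RNA level says nothing of c-JUN protein and did not check the edit, so KO is used below as the name that the labels give, for every direction stated. The libraries of the 2 labels stood apart in other genes, such as *TBR1* of cortical neurons (1 and 0 in WT and 4 to 27 in KO at day 24) and *POU5F1* of pluripotent cells (75 and 236 in WT and 3 to 6 in KO).

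Markers of neurons were measured in COs of both genotypes, and the sums of other markers differed between libraries. Of the neuron markers, 8 of 8 were in the tables, and their summed value at day 24 was 138 to 278 in WT and 322 to 1854 in KO. Mesenchyme markers (7 of 8 in the tables) summed to 2082 to 2449 in WT and 139 to 2918 in KO. Within KO, the library KO#10 replicate 1 stood apart with 2918, while the other 3 KO libraries had 139 to 172. The same library had the highest endoderm sum of the KO libraries (961, 3 of 8 markers in the tables) against 1 to 52 in the others and 5833 to 5870 in WT, and the lowest neuron sum. Its correlation with KO#10 replicate 2 across genes was 0.909, against 0.946 to 0.957 for the other pairs of libraries. Pluripotency markers (7 of 7) summed to 406 to 814 in WT and 25 to 44 in KO, and epithelium markers (4 of 5) to 460 to 634 and 32 to 195. Neural progenitor markers (6 of 6) summed to 174 to 387 in WT and 222 to 454 in KO, and forebrain markers (5 of 5) to 62 to 123 and 94 to 213. Neural crest markers (2 of 4) summed to 15 to 36 in WT and 8 to 26 in KO, and the 1 of 3 endothelium markers in the tables was at 21 to 24 and 1 to 8. At day 24 no marker of these lists was at 0 in all KO libraries, and *NEUROD6* was at 0 in both WT libraries. Fewer cells of a type and less RNA per cell cannot be told apart in such samples, and the part that these contents have in the results below was not tested.

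**Figure D1:**
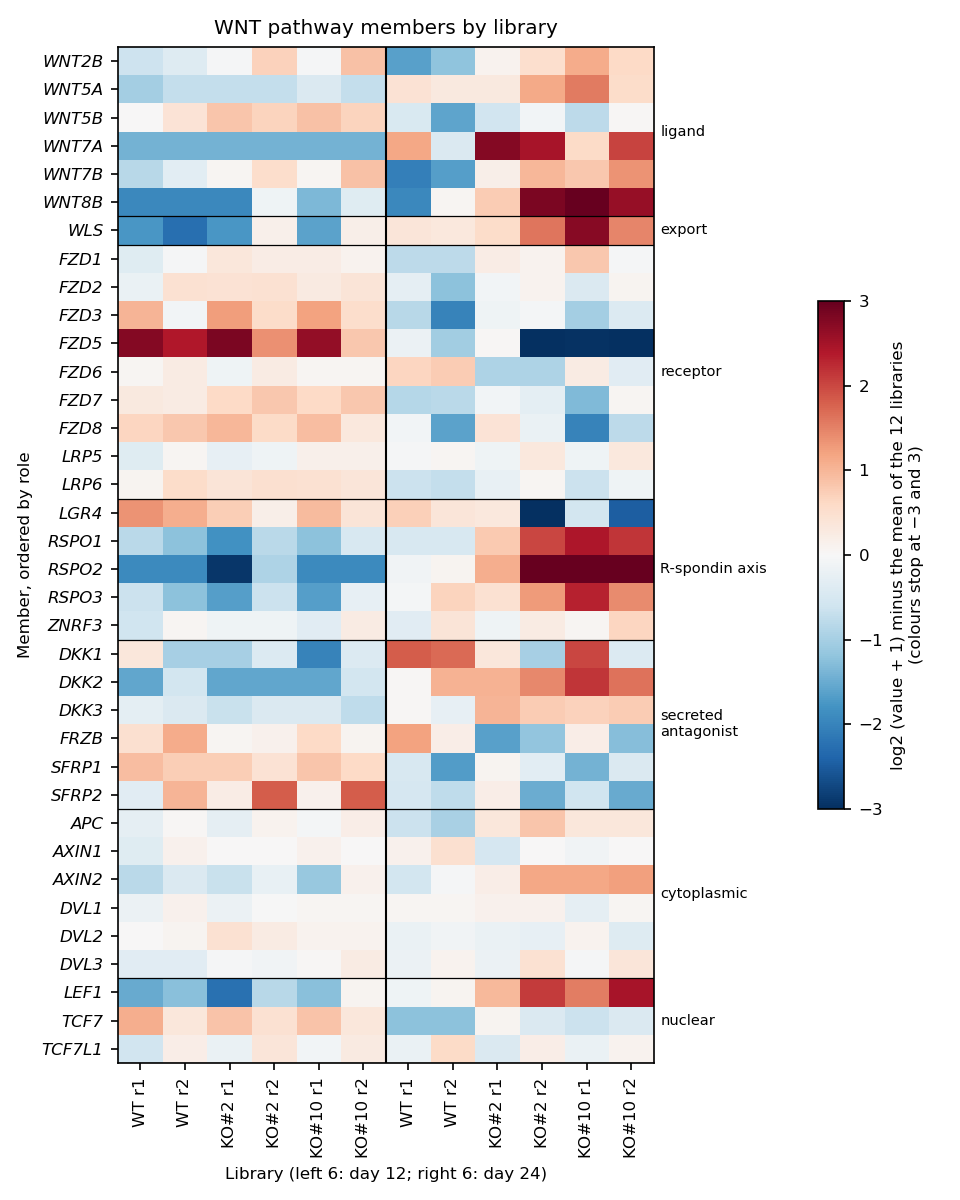
Heat map of the 36 members (rows, grouped by role) in the 12 libraries (columns, with r1 and r2 for the replicate), where colour is log2 (value + 1) minus the mean of that member over the libraries. At day 24 the rows of WNT8B, RSPO1, RSPO2 and LEF1 were redder in KO than in WT, the row of FZD5 was bluer at day 24 than at day 12, and KO#10 r1 at day 24 differed from the other KO libraries in many rows.

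At day 24, 9 of the 33 members tested were called higher in KO than in WT (27.3%), beside 4.22% of all 9289 genes tested. They were the ligands *WNT8B*, *WNT7B* and *WNT2B*, the R-spondins *RSPO1* and *RSPO2*, the receptor *FZD1*, the scaffolds *AXIN2* and *APC*, and the nuclear factor *LEF1*. None of the 33 was called lower, beside 3.79% of all genes, and 14 of the 33 had an unadjusted *p* under 0.05 in either direction (42.4%, near the 37.8% of all genes). Over the 33 members the median log2 fold change was 0.55, and over all genes tested it was 0.01. *DKK2*, *TCF7* and *ZNRF3* did not pass the filter on low values (10 in at least 2 libraries). Of the 33, 8 passed it through KO libraries alone (*APC*, *FZD1*, *RSPO1*, *RSPO2*, *WNT2B*, *WNT7A*, *WNT7B* and *WNT8B*) and 1 through WT alone (*FZD6*), so that the count over the members that passed is not evidence of a common direction. With a filter of 1 in 2 libraries, which took in all 36, 7 were called higher and 0 lower, beside 3.95% and 3.67% of all genes.

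Among the ligands, *WNT8B* had values of 1 and 7 (WT), 12 and 53 (KO#2) and 77 and 46 (KO#10). No KO library came down to the WT values, with the smallest gap at KO#2 replicate 1, and the log2 fold change was 3.32 (SE 0.79, adjusted *p* = 0.0385). *WNT7B*, a ligand of the neural tube and its vessels, was at 2 and 3 (WT), 13 and 24 (KO#2) and 21 and 31 (KO#10). The groups were well apart, at a log2 fold change of 2.69 (SE 0.33, adjusted *p* = 0.0181). *WNT2B* was at 2 and 3 (WT), 9 and 12 (KO#2) and 19 and 13 (KO#10), again with no overlap and a log2 fold change of 2.00 (SE 0.32, adjusted *p* = 0.0205).

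The other ligands were not called at day 24. *WNT7A* was at 5 and 1 (WT), 17 and 14 (KO#2) and 3 and 10 (KO#10), so that KO#10 replicate 1 fell within the WT range (log2 fold change 1.59, SE 0.70, adjusted *p* = 0.141). *WNT5A*, best known for signalling outside the β-catenin branch, was at 10 and 9 in WT and between 9 and 23 in KO. *WNT5B*, of the same subfamily, was at 25 and 11 in WT and between 20 and 36 in KO. For both, WT and KO libraries overlapped. *WLS*, without which WNT ligands are not secreted, was at 42 and 41 (WT), 48 and 101 (KO#2) and 220 and 92 (KO#10). All 4 KO libraries were above WT, but KO#2 replicate 1 only slightly, and the log2 fold change of 1.24 (SE 0.51, adjusted *p* = 0.125) was not called.

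R-spondins raise the response of a cell to WNT ligands. *RSPO2* was at 6 and 7 (WT), 15 and 60 (KO#2) and 142 and 67 (KO#10). Its KO values were widely spread, and all lay above WT, with a log2 fold change of 2.89 (SE 0.75, adjusted *p* = 0.0463). *RSPO1* was at 4 and 4 (WT), 11 and 27 (KO#2) and 37 and 30 (KO#10), with a log2 fold change of 2.33 (SE 0.43, adjusted *p* = 0.0242). *RSPO3* was at 8 and 14 (WT), 12 and 22 (KO#2) and 46 and 24 (KO#10). It overlapped between the groups and was not called (log2 fold change 1.07, SE 0.47, adjusted *p* = 0.145). *LGR4*, the R-spondin receptor in the tables, had values on the opposite side, at 54 and 42 (WT), 41 and 3 (KO#2) and 22 and 5 (KO#10). All KO libraries were below both WT libraries, with a spread among them too wide for a call (log2 fold change -1.98, SE 0.91, adjusted *p* = 0.157). The ligase *ZNRF3* lay between 5 and 11 in every library of day 24.

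Of the 9 receptors, *FZD1* alone was called. It was at 5 and 5 (WT), 11 and 10 (KO#2) and 17 and 9 (KO#10), just past 2-fold (log2 fold change 1.05, SE 0.27, adjusted *p* = 0.0461). *FZD6*, a receptor of planar cell polarity, was at 11 and 12 (WT), 3 and 3 (KO#2) and 8 and 5 (KO#10). It did not overlap between the groups and missed the call (log2 fold change -1.20, SE 0.40, adjusted *p* = 0.0759). *FZD5*, a receptor of the early anterior neural plate and eye field, was at 34 and 18 (WT), 39 and 3 (KO#2) and 4 and 0 (KO#10). KO#2 replicate 1 was above both WT libraries and the other 3 KO libraries far below them, so that the log2 fold change of -2.28 had an SE of 1.27 (adjusted *p* = 0.225). *FZD2*, *FZD3*, *FZD7* and *FZD8* had higher means in KO with overlapping or widely spread libraries, and log2 fold changes of 0.67, 1.01, 0.42 and 0.18 with adjusted *p* from 0.103 to 0.859. The co-receptors *LRP5* and *LRP6* had log2 fold changes of 0.07 (SE 0.19) and 0.44 (SE 0.20).

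No secreted antagonist was called at day 24. *DKK3*, a divergent member of the Dickkopf family, was at 27 and 22 (WT), 54 and 45 (KO#2) and 43 and 45 (KO#10). These groups were apart and the KO libraries close together, but the change was under 2-fold (log2 fold change 0.91, SE 0.15, adjusted *p* = 0.0210). *DKK1*, which removes the co-receptors from the complex, was at 13 and 12 (WT), 4 and 1 (KO#2) and 15 and 2 (KO#10). Here KO#10 replicate 1 exceeded WT while the other KO libraries were low (log2 fold change -1.53, SE 0.78, adjusted *p* = 0.193). *FRZB*, a secreted Frizzled-related protein, was at 77 and 38 (WT), 10 and 14 (KO#2) and 38 and 13 (KO#10). The value of KO#10 replicate 1 equalled the lower WT value, and *FRZB* was not called (log2 fold change -1.67, SE 0.52, adjusted *p* = 0.0674). *SFRP1* ranged from 41 to 94 in WT and from 49 to 139 in KO, and *SFRP2* from 83 to 100 in WT and from 49 to 162 in KO, both with overlap. *DKK2*, at 2 and 5 in WT and at most 12 in KO, was too low to be tested.

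Inside the cell, *AXIN2* and *LEF1* are components of the pathway that are also transcribed in response to it in many tissues. *AXIN2* was at 11 and 16 (WT), 19 and 38 (KO#2) and 38 and 40 (KO#10). The lowest KO library was only just above the higher WT library (log2 fold change 1.23, SE 0.32, adjusted *p* = 0.0474). *LEF1* was at 12 and 14 (WT), 27 and 60 (KO#2) and 40 and 78 (KO#10), with no overlap and a log2 fold change of 1.80 (SE 0.39, adjusted *p* = 0.0322). *APC*, which acts in the destruction complex and so against β-catenin, was at 9 and 7 (WT), 19 and 27 (KO#2) and 19 and 19 (KO#10). It too did not overlap (log2 fold change 1.28, SE 0.20, adjusted *p* = 0.0196). *AXIN1*, the constitutive relative of *AXIN2*, was at 13 and 17 in WT and between 8 and 12 in KO, below both WT libraries and under 2-fold (log2 fold change -0.45, SE 0.21, adjusted *p* = 0.168). *DVL1*, *DVL2* and *DVL3* had log2 fold changes of -0.05, -0.02 and 0.19. *TCF7L1*, mostly a repressor of the pathway, had -0.27 (SE 0.27). *TCF7* was at 3 and 3 in WT and between 5 and 9 in KO, too low to be tested at this day.

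**Figure D2:**
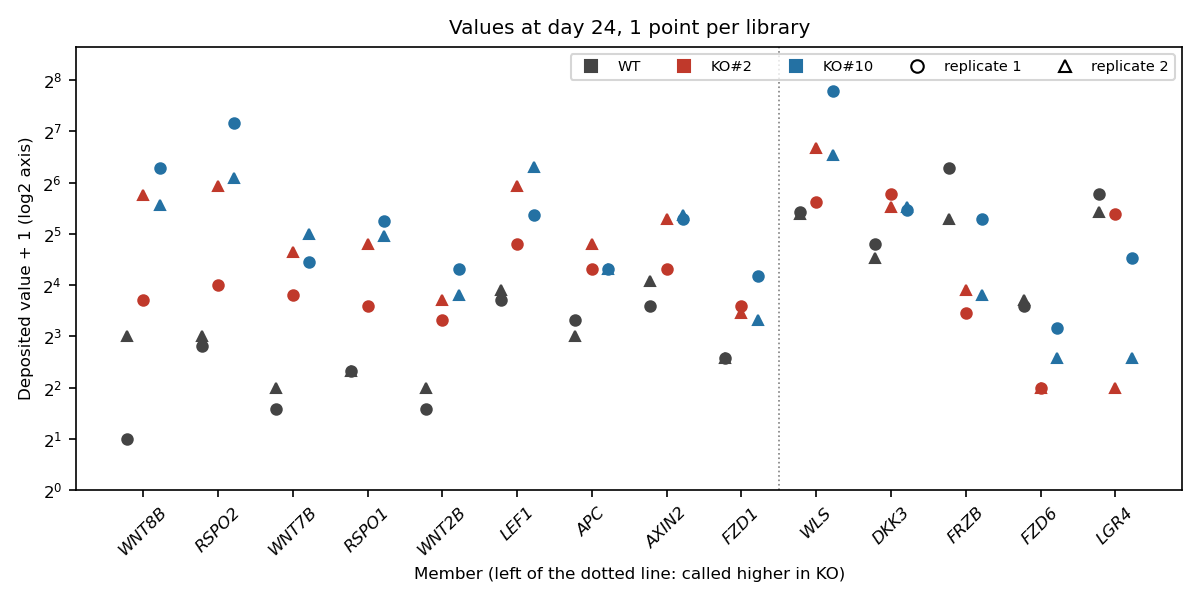
Values at day 24 (value + 1 on a log2 axis), 1 point per library, for the 9 members called higher in KO and for 5 members that were not called, with colour for the line and shape for the replicate. For each called member all 4 KO points lie above both WT points, and for RSPO2, WNT8B and WLS the circle of KO#10 is the highest.

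In 11 of 33 members every KO library at day 24 was above both WT libraries (22.2% of all genes tested did so). In 3 of 33, namely *AXIN1*, *FZD6* and *LGR4*, every KO library was below both (21.8% of all genes). Of the 11, *APC*, *FZD1*, *RSPO1*, *RSPO2*, *WNT2B*, *WNT7B* and *WNT8B* passed the filter through KO libraries alone. Of the 3, *FZD6* passed it through WT alone. These counts are therefore not evidence of a common direction. With 2 against 4 libraries an exact permutation test cannot go below *p* = 0.0667, so that no member could pass 0.05 by that test alone.

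KO#10 replicate 1, the KO library with the most mesenchyme marker RNA, was the highest of the 4 KO libraries for 12 of the 33 members (36.4%) and the lowest for 10 (30.3%). Over all genes it was the highest for 29.3% and the lowest for 27.2%. Those 12 were *WNT2B*, *WNT5A*, *WNT8B*, *WLS*, *FZD1*, *FZD6*, *RSPO1*, *RSPO2*, *RSPO3*, *DKK1*, *DVL2* and *FRZB*. Without this library more genes were called throughout, 7.86% of all genes higher and 6.8% lower. Of the members 9 were again called higher, 7 of them from the 9 above: *WNT7B* (log2 fold change 2.69), *WNT8B* (3.00), *RSPO2* (2.44), *RSPO1* (2.13), *WNT2B* (1.82), *LEF1* (1.88) and *APC* (1.32). *FZD1* fell under 2-fold (0.87, adjusted *p* = 0.0176) and *AXIN2* missed the threshold (1.15, adjusted *p* = 0.0562), while *FZD3* and *WNT7A* were called. *FZD6*, *FRZB* and *DKK1* were then called lower, 3 members in place of 0, which is near the share of all genes. KO#2 replicate 1 took the opposite place, as the lowest KO library for 14 members (42.4%, against 25.2% of all genes), *WNT2B*, *WNT5A*, *WNT7B*, *WNT8B*, *WLS*, *RSPO1*, *RSPO2*, *RSPO3*, *AXIN2* and *LEF1* among them.

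The calls also rested on single libraries of the other lines. Without either WT library, without KO#2 replicate 2 or without KO#10 replicate 2, 0 of the members were called, and over all genes between 1 and 12 were called higher and between 1 and 17 lower. The sign of the change was kept by each of the 9 under every alternative tried, with log2 fold changes from 0.87 (*FZD1*) to 4.32 (*WNT8B*). For each of the 9 all KO libraries lay above both WT libraries, so leaving out 1 library could not have changed the sign. Without KO#2 replicate 1, 8 of the 9 were called, all but *FZD1*, beside 1.59% of all genes called higher.

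**Figure D3:**
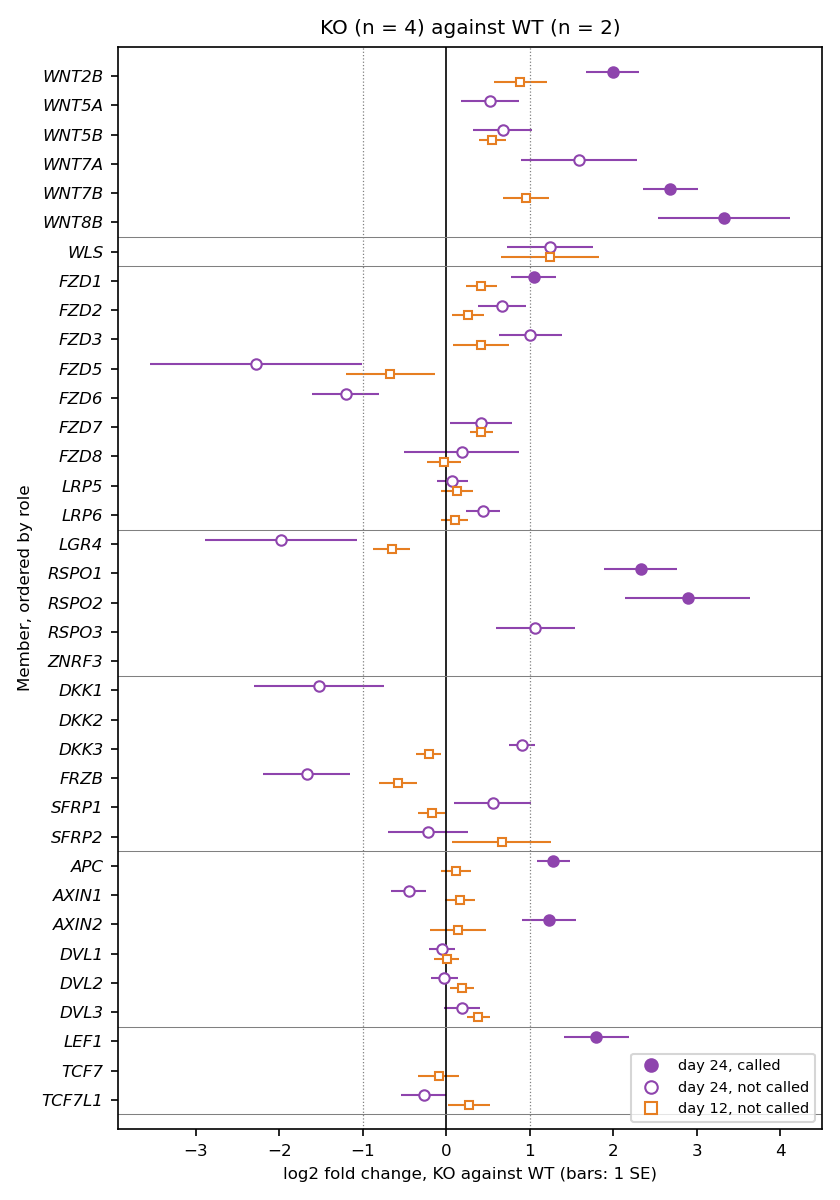
Log2 fold change of KO against WT with 1 SE for each member tested, at day 24 (circles, filled when called) and day 12 (squares), ordered by role. The filled circles are all to the right of 1, from 1.05 for FZD1 to 3.32 for WNT8B, and no square is filled.

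Each clone was also compared with the same WT libraries at day 24, so that the comparisons share these. In KO#2, 5 of 33 members were called (9.02% of all genes were): *APC* (1.40), *WNT2B* (1.72), *RSPO1* (1.87) and *WNT7B* (2.43) higher and *FZD6* lower (-1.64), as log2 fold changes. Without any 1 of the WT or KO#2 libraries, 0 were called in KO#2. In KO#10, 0 of 33 were called (0.28% of all genes), and 13 had an unadjusted *p* under 0.05 (39.4%, beside 24.3% of all genes). The values for KO#10 were 1.16 for *APC*, 2.27 for *WNT2B*, 2.78 for *RSPO1*, 2.94 for *WNT7B* and -0.77 for *FZD6*, with adjusted *p* from 0.0609 to 0.221. *WNT8B* had 3.92 and *RSPO2* 3.72 in KO#10. A direct test of KO#2 against KO#10 called 0 of 33 members and 0% of all genes, and 2 members had an unadjusted *p* under 0.05 (6.06%, beside 5.16% of all genes). These were *RSPO2* (-1.66, SE 0.67) and *FZD6* (-0.88, SE 0.33), both lower in KO#2, with an adjusted *p* of 0.825 each. No member thus told the clones apart with 2 libraries each, and a *p* above the threshold does not show that they were alike.

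At day 12 no member was called in KO against WT. Of the 25 members tested, 0 were called higher (0.0225% of all 8885 genes) and 0 lower (0.0675%), while 7 had an unadjusted *p* under 0.05 (28%, beside 11.0% of all genes). Without the variance trend of limma the counts were again 0 and 0. Every KO library was above both WT libraries in 7 of the 25 (28%, beside 8.23% of all genes) and below both in 1, *LGR4* (8.34% of all genes). Of the 25, 4 passed the filter through KO libraries alone (*FZD1*, *WLS*, *WNT2B* and *WNT7B*) and 0 through WT alone, and 3 of these 4 are among the 7, so that this count is not evidence of a common direction either. *WNT7B* was at 6 and 9 (WT), 12 and 17 (KO#2) and 12 and 22 (KO#10), with a log2 fold change of 0.96 (SE 0.28, adjusted *p* = 0.248). *WNT2B* was at 5 and 6 (WT), 8 and 14 (KO#2) and 8 and 16 (KO#10), with a log2 fold change of 0.89 (SE 0.32, adjusted *p* = 0.355). Both ligands were thus above WT in every KO library on both days, with less than a 2-fold difference at day 12. The others were *WNT5B* (35 and 47 in WT, 56 to 65 in KO), *FZD7* (70 and 68, 86 to 100), *FZD1* (7 and 9, 10 to 12), *DVL2* (37 and 39, 40 to 51) and *DVL3* (15 and 15, 18 to 23). *LGR4* was at 85 and 70 (WT), 55 and 37 (KO#2) and 64 and 43 (KO#10), with a log2 fold change of -0.65 (SE 0.23, adjusted *p* = 0.337). It too lay on the same side at both days. Marker sums differed less at day 12 than at day 24 for neurons (154 to 242 in WT and 239 to 324 in KO) and pluripotency (746 to 939 and 427 to 486), and were 395 to 428 and 482 to 747 for neural progenitors. Their part in these values was not tested.

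*RSPO1*, *RSPO2*, *RSPO3*, *WNT5A*, *WNT7A*, *WNT8B*, *DKK1*, *DKK2*, *FZD6*, *LEF1* and *ZNRF3* were too low at day 12 to be tested, and *WNT7A* was listed at 0 in all 6 libraries. For *WLS*, *SFRP2* and *FZD5*, named here after their values were seen, replicates 1 and 2 of KO were far apart at this day. *WLS* was at 9 and 10 in replicate 1 of KO#2 and KO#10 and at 36 and 37 in replicate 2, beside 9 and 6 in WT. *SFRP2* was at 166 and 156 in replicate 1 of KO and at 506 and 506 in replicate 2, with 112 and 288 in WT. *FZD5* lay the other way, from 277 and 242 in replicate 1 of KO to 100 and 68 in replicate 2, with 264 and 206 in WT. In all 3 lines replicate 2 was above replicate 1 by at least 0.5 on the log2 scale for *SFRP2*, and below it for *FZD3*. Each was 1 of the 25 members tested (4%), beside 2.05% of all genes above and 1.67% below. Libraries of 1 number shared these levels across the clones, and with the replicate number as a block the counts of members called at day 12 were again 0 and 0, beside 0.405% of all genes higher and 0.394% lower.

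From day 12 to day 24 the KO libraries changed at 19 of the 34 members tested. Of these, 10 were called higher (29.4%, beside 5.89% of all 9952 genes) and 9 lower (26.5%, beside 5.58%). The members that rose were the R-spondins *RSPO2*, *RSPO1* and *RSPO3*, the ligands *WNT7A*, *WNT8B* and *WNT5A*, *WLS*, *LEF1*, *AXIN2* and *DKK3*. Of these, the 3 R-spondins, *WNT5A*, *WNT7A* and *WNT8B* were under 10 in every library of day 12. They passed the filter on low values through day 24 alone, so that the count of members that rose is not evidence of a common direction. Those that fell were the receptors *FZD5*, *FZD8*, *FZD3* and *FZD7*, the R-spondin receptor *LGR4*, the antagonists *SFRP2*, *FRZB* and *SFRP1*, and the ligand *WNT5B*. In WT, 2 of 34 were called higher (5.88%, beside 7.2% of all genes), and 7 lower (20.6%, beside 7.89%). Leaving out 1 of the WT libraries took the counts in WT as low as 0 higher (without either WT library of day 24 or WT replicate 1 of day 12) and 1 lower (without WT replicate 2 of day 24). No receptor was called higher in either genotype.

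*RSPO2* had values of 0, 3, 1 and 1 in the KO libraries of day 12 and of 15, 60, 142 and 67 at day 24 (log2 fold change 4.79, SE 0.56, adjusted *p* = 9.58e-05). In WT it was at 1 and 1 and then at 6 and 7 (1.90, SE 0.79, adjusted *p* = 0.0878). *RSPO1* lay between 1 and 4 in KO at day 12 and between 11 and 37 at day 24 (2.92, SE 0.36), beside 3 and 2 and then 4 and 4 in WT (0.53, SE 0.51). *RSPO3* lay between 2 and 7 in KO and then between 12 and 46 (2.42, SE 0.41), beside 5 and 3 and then 8 and 14 in WT (1.25, SE 0.57). All 3 R-spondins were thus called in KO and not in WT, which had 2 libraries a day. *LEF1* lay between 2 and 14 in KO and then between 27 and 78 (2.83, SE 0.42), beside 4 and 5 and then 12 and 14 in WT (1.35, SE 0.59). *WNT8B* lay between 1 and 6 in KO and then between 12 and 77 (3.33, SE 0.59), beside 1 and 1 and then 1 and 7 in WT, which was not called. For *LEF1* and *WNT8B*, as for the R-spondins, the KO libraries of the 2 days did not overlap. *WNT7A*, listed at 0 at day 12, reached 3 to 17 in KO and 5 and 1 in WT at day 24, and a fold against 0 is not given.

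*WLS* and *WNT5A* were called higher in both genotypes. *WLS* reached 42 and 41 in WT from 9 and 6 (log2 fold change 2.34, adjusted *p* = 0.0264), and in KO the change was 2.34 (adjusted *p* = 0.00336). *WNT5A* reached 10 and 9 in WT from 3 and 4 (1.23), and 9 to 23 in KO from 4 to 5 (1.53). *WNT7B* was called lower in WT, from 6 and 9 to 2 and 3 (-1.27, SE 0.37, adjusted *p* = 0.0244), and had 0.45 (SE 0.26) in KO. *TCF7* fell in WT from 19 and 11 to 3 and 3 (-1.95, SE 0.30, adjusted *p* = 0.00128), and had -0.98 in KO, short of 2-fold (adjusted *p* = 0.00397). *LRP6* fell in WT from 34 and 47 to 20 and 19, which is 2-fold (adjusted *p* = 0.00585), and had a log2 fold change of -0.66 in KO.

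Several receptors had lower values at day 24 than at day 12. *FZD5* lay between 68 and 277 in KO at day 12 and between 0 and 39 at day 24 (log2 fold change -4.79, SE 0.85, adjusted *p* = 0.00127), beside 264 and 206 and then 34 and 18 in WT (-3.18, SE 1.20, adjusted *p* = 0.0644). All libraries of day 24 were below all those of day 12 in both genotypes. *FZD3* was called lower in both genotypes, with log2 fold changes of -1.29 in KO and -1.88 in WT, as were *FZD7* (-1.11 in each), *SFRP1* (-1.17 and -1.90) and *WNT5B* (-1.11 and -1.23). *FZD8* fell in KO, from values between 29 and 47 to values between 5 and 31 (-1.35, adjusted *p* = 0.0306), and in WT it went from 37 and 41 to 22 and 7 (-1.56, adjusted *p* = 0.0790). *LGR4* fell in KO, from between 37 and 64 to between 3 and 41 (-2.01, SE 0.58, adjusted *p* = 0.0170). *SFRP2* fell in KO, from between 156 and 506 to between 49 and 162 (-1.85, SE 0.49, adjusted *p* = 0.0107). *FRZB* fell in KO (-1.18, SE 0.35, adjusted *p* = 0.0193) and had -0.09 (SE 0.49) in WT.

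**Figure D4:**
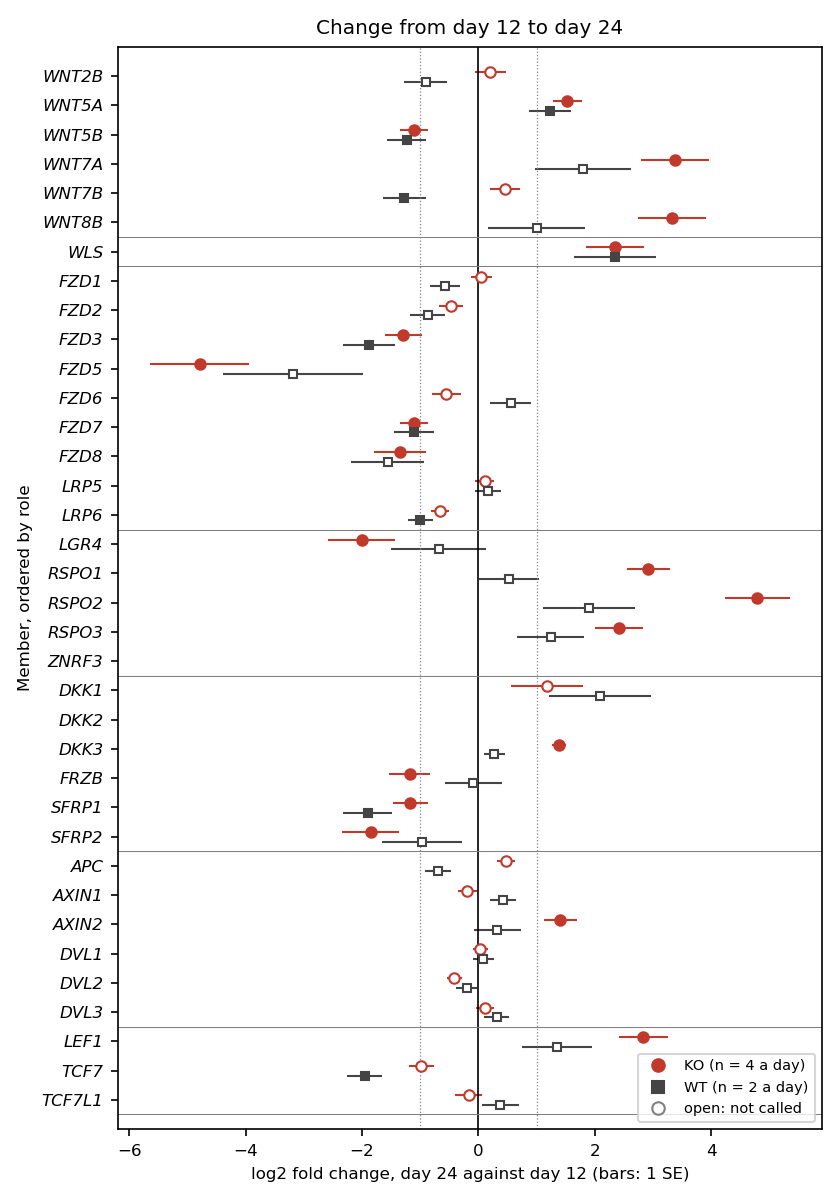
Log2 fold change of day 24 against day 12 with 1 SE, in KO (circles) and in WT (squares), for each member tested, ordered by role and filled when called. RSPO2 and FZD5 are at the ends of the KO scale (4.79 and -4.79), WLS has the same 2.34 in both genotypes, and WNT7B is on opposite sides of 0.

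Whether the KO-WT difference changed between the days was tested over all 12 libraries. It was called for 1 of 34 members, *DKK3* (1.31% of all genes), and 11 members had an unadjusted *p* under 0.05 (32.4%, beside 21.5% of all genes). The *DKK3* values at day 12 were 21 and 19 (WT), 16 and 19 (KO#2) and 19 and 15 (KO#10), so that KO lay at or below WT then and above it at day 24 (change of the difference 1.11, SE 0.21, adjusted *p* = 0.0349). *APC* (1.17, adjusted *p* = 0.0567), *RSPO1* (2.39, adjusted *p* = 0.0697) and *WNT7B* (1.73, adjusted *p* = 0.0707) were next. With the replicate number as a block, 3 members were called, namely *APC*, *DKK3* and *WNT7B*, beside 1.3% of all genes higher and 1.87% lower. The change of *DKK3* was lost on leaving out any 1 library of day 12, WT replicate 2, KO#2 replicate 2 or KO#10 replicate 2 of day 24 (adjusted *p* up to 0.189). For the remaining members, a call in KO and none in WT is not shown to be a difference between them.

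Other genes of the pathway were taken from a list of 54, of which 40 were in the tables and 37 were tested at day 24, where 4 were called higher and 1 lower (beside 4.22% and 3.79% of all genes), and the list's median log2 fold change was 0.32 (0.01 over all genes). *TPBG*, which encodes a membrane protein that dampens β-catenin signalling, was at 21 and 23 (WT), 43 and 71 (KO#2) and 118 and 55 (KO#10) (1.56, adjusted *p* = 0.0373). *DAAM1*, a formin of the Dishevelled branch, was at 20 and 16 (WT), 50 and 49 (KO#2) and 25 and 46 (KO#10) (1.15, adjusted *p* = 0.0445). *DRAXIN*, a secreted guidance protein that antagonizes WNT, was at 6 and 5 in WT and at 10 to 17 in KO (1.08, adjusted *p* = 0.0352). *VANGL2*, of planar cell polarity, was at 18 and 19 in WT and at 28 to 50 in KO (1.06, adjusted *p* = 0.0386). *TMEM88*, which binds Dishevelled, was at 60 and 54 (WT), 9 and 4 (KO#2) and 21 and 3 (KO#10) (-2.83, adjusted *p* = 0.0349). *CTNNB1*, which encodes β-catenin, was at 819 and 819 in WT and at 664 to 1006 in KO (0.00, SE 0.17). *TCF7L2* was at 13 and 17 in WT and at 9 to 13 in KO (-0.51, SE 0.21, adjusted *p* = 0.121).

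Some genes outside the members are often transcribed in response to the pathway. *TNFRSF19* had a log2 fold change of 0.99 in KO against WT at day 24 (SE 0.26, adjusted *p* = 0.0485), short of 2-fold. *EPHB2* had 0.96 (SE 0.30, adjusted *p* = 0.0674) and *CCND1*, which encodes cyclin D1, 0.36 (SE 0.15, adjusted *p* = 0.130). *MSX1* was at 9 and 11 (WT), 3 and 7 (KO#2) and 18 and 6 (KO#10), with -0.44 (SE 0.56), and *MSX2* had -0.99 (SE 0.49, adjusted *p* = 0.182). *SP8* had -0.34 (SE 0.58) and *EPHB3* 0.28 (SE 0.34). None of these genes was called, while *AXIN2* and *LEF1*, which respond to the pathway in many tissues too, were called higher. Choroid plexus and cortical hem markers (4 of 8 in the tables) summed to 469 to 506 in WT and 32 to 188 in KO at day 24. This sum was mostly *TTR*, at 424 and 471 in WT and 22 to 130 in KO, and does not stand for the list as a whole. *TTR* and *AQP1* were called lower. *LMX1A*, a hem and roof plate factor chosen here after its values were seen, was at 3 and 3 (WT), 5 and 14 (KO#2) and 28 and 13 (KO#10), above WT in every KO library but not called. At day 12 no gene of the pathway list was called.

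Promoter sequence was taken from RefSeq for GRCh38.p14, as windows from 250 bases before to 50 after each start, and 24 of the 36 members matched, with 30 windows. The windows were searched on both strands for CTTTGAT and CTTTGAA, which TCF and LEF1 proteins bind, and for TGANTCA, which AP-1 dimers with c-JUN bind. Of all 35116 windows 2.62% held CTTTGAT, 4.43% held CTTTGAA and 7.71% held TGANTCA. Among the 30 windows of members 1 held CTTTGAA, that of *DKK1*, and none held CTTTGAT or TGANTCA, which says only that these letters are not in these windows. *AXIN2*, *WNT7B* and *RSPO2* had no entry. The stretch of 60 bases around the *DKK1* match (chr10:52314159-52314218, plus strand) is shown because it is the only match among the members, with the match, from 95 to 89 bases before the start, in capitals:
DKK1: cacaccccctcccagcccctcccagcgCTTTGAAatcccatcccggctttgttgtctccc
For 3 members that were called higher in KO at day 24, the 120 bases before a RefSeq start are shown. CG dinucleotides are in capitals, since the windows of these members differ widely in them. The *LEF1* start lies inside the interval deposited for that gene (chr4:108047545-108168956, minus strand), so its stretch is not upstream of the whole gene. The *WNT8B* and *RSPO1* stretches end where the deposited intervals begin. The 3 stretches are *WNT8B* (chr10:100462889-100463008, plus strand), *RSPO1* (chr1:37634893-37635012, minus strand) and *LEF1* (chr4:108166302-108166421, minus strand):
WNT8B: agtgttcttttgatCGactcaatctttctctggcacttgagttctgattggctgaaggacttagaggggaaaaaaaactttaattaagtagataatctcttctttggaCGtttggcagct
RSPO1: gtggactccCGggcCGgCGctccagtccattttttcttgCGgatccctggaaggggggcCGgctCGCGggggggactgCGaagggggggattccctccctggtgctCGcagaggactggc
LEF1: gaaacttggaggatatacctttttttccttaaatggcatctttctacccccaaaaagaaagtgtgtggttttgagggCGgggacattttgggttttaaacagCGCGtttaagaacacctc
In the 250 bases before the start there were 3 CG dinucleotides for *WNT8B*, 21 for *RSPO1* and 8 for *LEF1*, with a GC content of 45.2%, 70.8% and 47.6%. Over all windows the median was 11 CG dinucleotides (quartiles 3 and 23), and over the 30 windows of members it was 18. The windows of *WNT8B* and *LEF1* were thus below the median of all windows, and that of *RSPO1* was near the upper quartile. All 3 genes were called in the same direction.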

How the data were processed

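Total RNA of pooled COs, depleted of ribosomal RNA and made into strand-specific libraries, was sequenced in 12 libraries, 1 table each. The authors deposited whole-number normalized scores per gene, not raw counts, with Ensembl identifiers and intervals. The submitters' processing notes name bcl2fastq, RSEM and Bowtie2 without versions, and the build mm10, although the identifiers are human and the intervals of 36 of 36 members overlap GENCODE release 29 (GRCh38). The normalization is not given in the sources used here, and since depth is unknown no value carries a counting error. How reads common to paralogs or to overlapping genes were assigned is not stated.

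Values were analysed as log2 (value + 1), for genes at 10 or more in at least 2 of the libraries fitted, with lmFit and eBayes with a variance trend (limma 3.58.1, R 4.3.3), and adjusted over all genes tested by the Benjamini-Hochberg method. For low genes this scale makes a fold change smaller than it was. KO against WT used the 6 libraries of a day, the clone comparisons the 6 libraries of day 24 in 3 groups, and the comparisons of days and their interaction all 12 in 4 groups. No sample was dropped or imputed. The fits were tested on simulated data. Python 3.11.15 with pandas 2.3.3, numpy 2.4.6 and matplotlib 3.10.9 made the tables and figures.

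The members, lists, tests and rule for named genes were chosen with earlier results of these data known. Values in every library were given for members called in any comparison and for those with no overlap of KO and WT and at least a 2-fold change, and for some others by role. Other pathway genes were named when called at day 24 or day 12, with *CTNNB1* and *TCF7L2* added. Of the genes that respond to the pathway, single values are given, and the counts over that list are not reported here. Groups and replicate numbers came from the labels. At day 12 libraries of 1 number deviated together from their group means (r across genes 0.428 to 0.598 for the 3 pairs of lines), so these numbers pair the libraries at that day. The values printed are from the fit without the replicate block, and the block is an alternative. Alternatives were filters of 1 and 20, a pseudocount of 0.1, a replicate block, 3 groups in place of WT and KO, a joint fit of all 12 libraries, and the removal of 1 library at a time. Dropping the variance trend, and centring each library on its mean, were added after the values were seen.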

Additional observations from a re-analysis of the deposited data

Results flagged for a closer look

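In 8 of 71 groups of 4 KO libraries, 1 per member and day, 1 library was separated from the other 3 by more of the range than Dixon's critical value allows, where chance alone gives about 5%. At day 24 *APC* had 27 in KO#2 replicate 2 beside 19 in each of the others, and *AXIN2* had 19 in KO#2 replicate 1 beside 38, 38 and 40. *FZD5* had 39 in KO#2 replicate 1 beside 0, 3 and 4, and *FRZB* had 38 in KO#10 replicate 1 beside 10, 13 and 14. At day 12 *FRZB* had 50 in KO#10 replicate 1 beside 34, 35 and 36. The other 3 differed by 1 unit of the value: *AXIN1* (13 beside 12) and *WNT5A* (5 beside 4) in KO#10 replicate 1, and *DKK2* (1 beside 0) in KO#10 replicate 2. No member or library was left out of the report for this. *DKK3* stood out in that its KO-WT difference changed between the days by 1.11 on the log2 scale (limma, adjusted *p* = 0.0349), from KO values at or below WT at day 12 to values above WT in 4 of 4 KO libraries at day 24.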

How the results depend on the processing

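Depth is unknown, many members have values under 20 where steps of 1 unit are large, and WT has 2 libraries a day. With each day 24 library left out in turn, the members called in KO against WT at day 24 ranged from 0 to 9 higher and from 0 to 3 lower. At day 12, 0 were called under every setting. Lower members numbered 1 with the clones as separate groups (*FZD6*) and 2 with all 12 libraries in 1 fit (*FRZB* and *FZD6*). For day 24 against day 12, leaving out a library gave 10 higher and 5 to 10 lower in KO (5 without KO#10 day 24 replicate 1), and 0 to 4 higher and 1 to 9 lower in WT (1 higher and 3 lower without WT day 12 replicate 2, 0 and 4 without WT day 12 replicate 1, 4 higher without KO#10 day 24 replicate 1). The filter of 20 left 1 higher in WT. The interaction was called for 3 members with the replicate block (1.3% of all genes higher and 1.87% lower) and 2 with centred libraries (0.553% and 0.955%). With a library left out it was called for 0 to 6. The 6 were without KO#10 day 24 replicate 1, beside 4.23% of all genes higher and 5.02% lower. Without KO#2 day 24 replicate 1 it was 4, beside 0.364% and 0.697%. In KO#2 against WT 2 were called with the filter of 20, 3 with the replicate block, and 0 to 4 with a library left out. In KO#10 against WT 2 were called without the variance trend and 2 with centred libraries. Where a library left out leaves a lone sample of a line, it is assumed to vary like the other groups. The share of all genes called moved under many of these settings too, so the counts alone show nothing particular to the members. The cause of these changes was not tested. No member that was called, or had no overlap of KO and WT with a 2-fold change, changed direction under any setting. Where KO and WT did not overlap, leaving out 1 library could not have changed it.

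At day 24 libraries of 1 replicate number deviated together less than at day 12, and not in every pair of lines. The r of deviations was 0.212 (WT with KO#2), -0.106 (WT with KO#10) and 0.346 (KO#2 with KO#10). With the block, 8 members were called higher at day 24 in place of 9 (*RSPO2*, adjusted *p* = 0.0627), 0 at day 12, and 10 higher and 9 lower between the days in KO, where the calls were the same. In WT the block gave 3 higher and 8 lower in place of 2 and 7. Over all genes the filter, pseudocount, block and centring moved the median by less than 0.1 on the log2 scale. Every library was deposited with a median of 17, so this median had little room to move and says nothing of single members. Over the single genes, *JUN* included, 345 fits for the days in KO kept the call and 13 lost it, and for KO against WT at day 24 123 stayed on their side of the threshold (*FZD6*, *LGR4* and *WLS* were not called to begin with), 50 lost the call and 3 gained it (*FZD6*).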
